A study of Mus musculus with 21 samples.

Results

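Myeloid C-type lectin receptors are described here by 8 genes of the 23420 in the count table: Clec4d, Clec4e, Clec4n, Clec5a, Clec7a, Clec10a, Clec12a and Mgl2. The genes were chosen by symbol, and all 8 passed the filter on low counts in every comparison. RNA was sequenced from 21 libraries of sorted inflammatory monocytes (IMs) of adult mice of both sexes. Tumor-infiltrating IMs (TIMs) came from LN2E1 primary tumors in the lung (n = 5) and LN2E1 lymph node metastases (n = 5) of FVB mice, each given 500000 cells orthotopically, and from LN4K1 lung metastases (n = 5) of DBA2 mice, each given 300000 cells intravenously. Bone marrow IMs (BM IMs) came from tumor-free FVB mice (n = 3) and DBA2 mice (n = 3). Cells were enriched with a kit and sorted as CD45+CD11b+Ly6C hi Ly6G-, with Siglec-F+ cells of the lung removed. LN2E1 (KAL-LN2-E1 in the labels) and LN4K1 are lung squamous carcinoma lines made by in vivo passage of the KAL and KLN-205 lines. Strain, line, route and number of cells given changed together between both models, as did primary tumor and metastasis between the lung samples, so their parts cannot be told apart. The methods of the study call the replicates technical, and nothing in the labels ties them to separate animals. The p-values therefore measure the spread between these libraries, which may be technical.

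C-type lectin receptors are surface proteins through which myeloid cells bind sugars, lipids and debris from microbes and dying cells. Dectin-2 (Clec4n), MCL (Clec4d) and Mincle (Clec4e) signal through the adaptor FcRγ, and MDL-1 (Clec5a) signals through DAP12. Dectin-1 (Clec7a) carries its own activating tail. All of these recruit the kinase SYK, and CARD9 then links SYK to NF-κB and to cytokine genes such as Il1b. MICL (Clec12a) instead carries an inhibitory motif that recruits phosphatases. The galactose-type lectins MGL1 (Clec10a) and Mgl2 take up glycans that end in galactose or N-acetylgalactosamine and are known from macrophages and dendritic cells.

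Total counts per library lay between 80772922 and 101043568. The sort genes Ptprc (CD45), Itgam (CD11b) and Ly6c2 (Ly6C) were present in every library. Ly6c2 fell in all 3 comparisons of TIMs with BM IMs, by 1.30, 1.17 and 0.88 on the log2 scale. The symbols Ly6g and Siglecf were looked for and were not among the genes of the count table, so Ly6G RNA could not be read. Siglec5, the symbol used for Siglec-F in the table, reached at most 10.4 CPM (counts scaled to a common library size with TMM factors).

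In LN2E1 primary tumors, 5 of the 8 receptors rose over FVB BM IMs and 2 fell, where 33.3% of all 14569 genes tested rose and 28.6% fell. "Rose" and "fell" mean an adjusted p under 0.05 in the quasi-likelihood test of edgeR, with p-values adjusted by the Benjamini-Hochberg method for all genes tested. Clec4n, Clec4d, Clec4e, Clec7a and Clec5a rose, Clec12a and Mgl2 fell, and Clec10a did not pass. In LN2E1 lymph node TIMs 4 receptors rose and 1 fell, against 20.2% and 17.2% of all 13273 genes. In LN4K1 lung TIMs 4 rose and 1 fell, against 13.9% and 11% of all 13624 genes. The median log2 fold change of the 8 genes was 0.81, 0.82 and 0.61 in these comparisons, and that of all genes tested was 0.08, -0.04 and 0.03. Under the thresholds of the study for a DEG (adjusted p under 0.0001 and absolute log2 fold change above 1), 4 receptors were higher in each LN2E1 site, where 7.72% and 4.01% of all genes were. In LN4K1 lung TIMs only Clec4n was, where 1.21% of all genes were. These thresholds were applied here to edgeR values, whereas the study applied them to DESeq2 values with shrunken fold changes. Calls under its own test can therefore differ. Clec4d and Clec4e missed the thresholds in LN4K1 lung TIMs only by the adjusted p of edgeR (0.000164 and 0.000204). Counted by libraries that did not overlap, 4 receptors lay higher and 2 lower in primary tumors, where 30.7% and 27.3% of all genes did. In lymph nodes 4 lay higher and 1 lower (20.1% and 22.8% of all genes), and in LN4K1 lungs 5 lay higher and 1 lower (19.9% and 14.9% of all genes). Both LN2E1 comparisons used the same 3 FVB BM libraries, so their values are not independent.

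**Figure D1:**
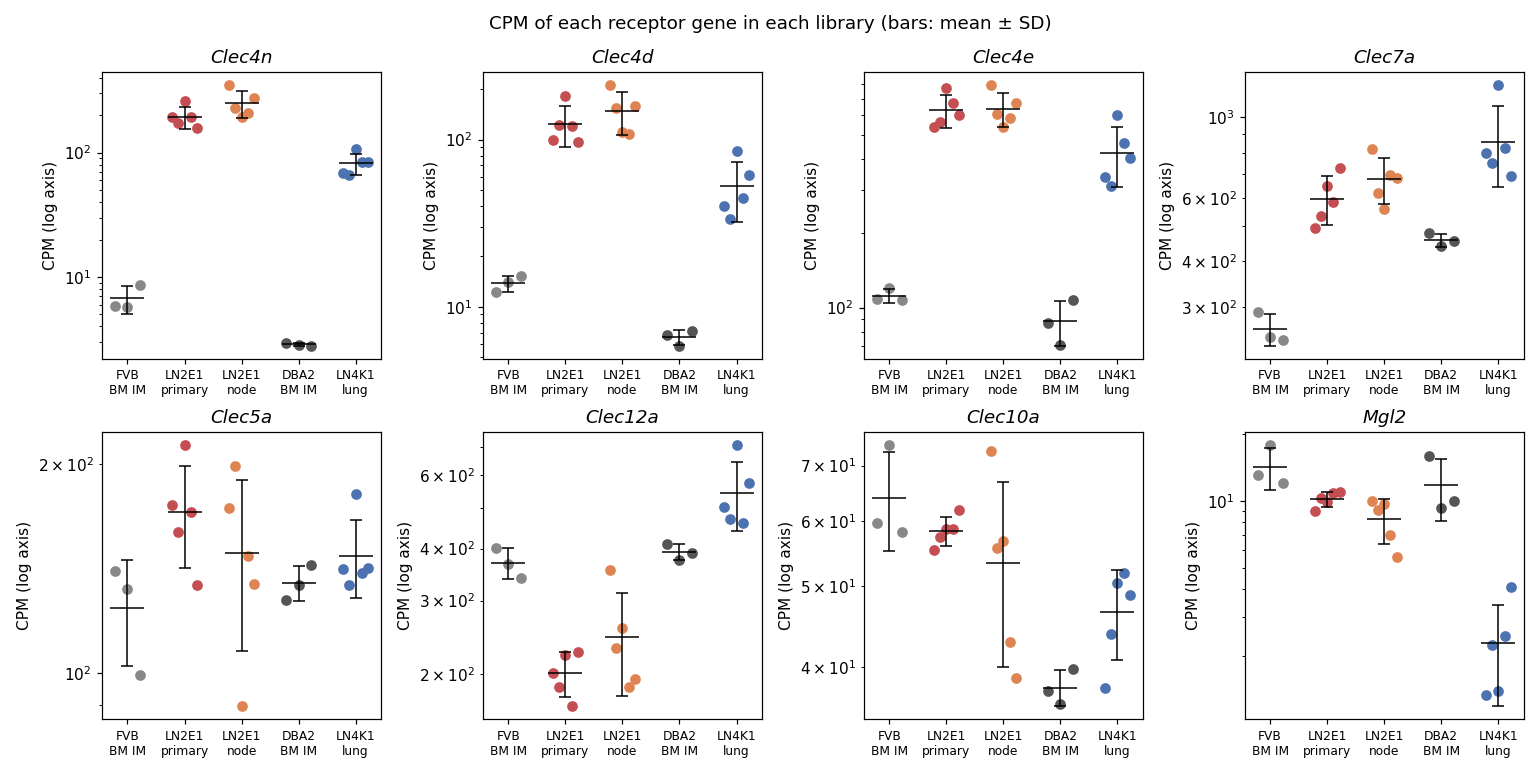
Each panel shows 1 receptor gene, with CPM on a log axis whose range differs between panels, 1 point per library and the 5 groups side by side. Horizontal bars are group means and error bars are SD (n = 3 for BM IMs, n = 5 for TIMs). For Clec4n, Clec4d and Clec4e every TIM library lies above every BM IM library.

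Clec4n, which encodes the mannan receptor Dectin-2, rose most of the 8 genes in all 3 comparisons. Its CPM was 5.83, 5.71 and 8.67 in the FVB BM libraries and 2.97, 2.86 and 2.81 in the DBA2 BM libraries. It was 192, 172, 259, 193 and 157 in primary tumor TIMs, 349.9, 229, 192, 209 and 274 in lymph node TIMs and 68.7, 66.4, 106, 84.5 and 84.2 in LN4K1 lung TIMs. The BM and TIM ranges did not overlap, and the lowest TIM library stood several times above the highest BM library. The change was 28.4-fold in primary tumors (log2 fold change 4.83, SE 0.25, adjusted p = 5.28e-07). It was 37.2-fold in lymph nodes (log2 fold change 5.22, SE 0.29, adjusted p = 1.16e-06) and 26.96-fold in LN4K1 lungs (log2 fold change 4.75, SE 0.20, adjusted p = 8.83e-07). In bulk RNA, a larger share of cells with the transcript and more transcript per cell cannot be told apart.

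Clec4d encodes MCL, a partner of Mincle in binding mycobacterial glycolipid. Its CPM was 12.2, 14.1 and 15.2 in FVB BM, 6.82, 5.85 and 7.12 in DBA2 BM, 99.6, 122, 182, 120.4 and 96.7 in primary tumors, 212, 155, 111, 107 and 159 in lymph nodes and 40.2, 33.3, 84.9, 44.8 and 61.6 in LN4K1 lungs. TIMs lay above BM IMs of either strain in every library, and LN4K1 lung TIMs lay below all LN2E1 TIMs. The change was 8.83-fold in primary tumors (log2 fold change 3.14, SE 0.24, adjusted p = 4.5e-06), 10.7-fold in lymph nodes (log2 fold change 3.43, SE 0.26, adjusted p = 8.12e-06) and 7.60-fold in LN4K1 lungs (log2 fold change 2.93, SE 0.32, adjusted p = 0.000164).

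Clec4e encodes Mincle, a receptor for mycobacterial cord factor and for material from dead cells. Its CPM was 108, 120.1 and 107 in FVB BM, 86.99, 70.8 and 107 in DBA2 BM, 536, 564, 772, 673 and 601 in primary tumors, 796, 606, 536, 583 and 674 in lymph nodes and 338, 312, 601, 462 and 403 in LN4K1 lungs. The TIM libraries again lay above all BM libraries, and here LN4K1 lung TIMs overlapped the LN2E1 TIMs. The change was 5.55-fold in primary tumors (log2 fold change 2.47, SE 0.14, adjusted p = 8.72e-07), 5.72-fold in lymph nodes (log2 fold change 2.52, SE 0.15, adjusted p = 2.02e-06) and 4.54-fold in LN4K1 lungs (log2 fold change 2.18, SE 0.25, adjusted p = 0.000204). The calls of Clec4n, Clec4d and Clec4e passed in all 126 refits of these comparisons under other settings or without 1 library.

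Neutrophils can also express these 3 receptors. Among 9 genes measured of a list of mature neutrophil markers, 5 rose and 2 fell in primary tumors (9 tested), 3 rose and 3 fell in lymph nodes (8 tested) and 2 rose and 2 fell in LN4K1 lungs (8 tested). The shares of all genes that rose in these comparisons were 33.3%, 20.2% and 13.9%, and those that fell 28.6%, 17.2% and 11%. The summed CPM of the list was between 2010 and 2492 in FVB BM, 1012 and 1338 in DBA2 BM, 1353 and 2370 in primary tumors, 863 and 1498 in lymph nodes and 1448 and 2169 in LN4K1 lungs. Different genes made up these sums. S100a8 and S100a9 had means of 725 and 708 CPM in FVB BM, and of 137 and 98.3 in primary tumors. Mmp8 and Csf3r had means of 436 and 272 CPM in FVB BM, 613 and 566 in primary tumors and 833 and 465 in LN4K1 lungs. Sums of similar size therefore do not stand for similar neutrophil RNA. Il1r2, the gene of a decoy receptor for IL-1, had log2 fold changes of 6.07, 6.26 and 4.60 in the 3 TIM comparisons and rose in each. Cxcr2, a chemokine receptor gene, rose by 3.66 and 1.98 and Csf3r by 1.04 and 0.65 in primary tumors and lymph nodes, and Mmp8 rose by 0.47 in primary tumors and by 1.80 in LN4K1 lungs. Stfa2l1 rose in primary tumors from at most 0.0536 CPM in FVB BM to between 0.140 and 3.74 CPM. S100a8, an abundant neutrophil gene, fell by 2.43 and 3.36 in primary tumors and lymph nodes, with -0.22 in LN4K1 lungs (adjusted p = 0.692), and S100a9 fell by 2.87, 6.36 and 1.86 in the 3 groups. Retnlg fell in lymph nodes and LN4K1 lungs. Neutrophil precursor genes summed to between 3005 and 5219 CPM in BM libraries and between 29.2 and 660.3 in TIM libraries. The part of neutrophil RNA in the receptor changes was not tested.

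Clec4n, Clec4d and Clec4e are neighbors on chromosome 6. In the GENCODE vM21 annotation of GRCm38, Clec4n spans chr6:123229843-123247021 and Clec4d chr6:123262111-123275265 on the plus strand, and Clec4e spans chr6:123281789-123289870 on the minus strand. The gaps between them are 15.1 kb and 6.52 kb. With 6 other Clec4 genes of a fixed list of C-type lectin receptors they lie within 368 kb. These neighbors did not share 1 direction. Clec4a1 rose in all 3 comparisons (1.47, 1.53 and 1.22 on the log2 scale), as did Clec4a3 (0.89, 1.48 and 1.75). Clec4b1 fell in both LN2E1 sites (log2 fold changes of -1.07 and -1.51), and so did Clec4b2, the listed gene next to Clec4n. Clec4b2 rests on few reads, with a log2 fold change of -3.58 in primary tumors and 0 counts in 4 of the 5 lymph node libraries. Clec4a2, the gene of the inhibitory receptor DCIR, fell in LN2E1 primary tumors and lymph nodes (-0.70 and -0.74), and its value in LN4K1 lungs was 0.46 (adjusted p = 0.0631). The 9 genes are near relatives of each other, so reads at shared stretches could be split between some of them. Of the 50-base stretches in transcripts, Clec4d and Clec4e shared 0% with any other gene and Clec4n shared 0.686%.

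The promoters of Clec4d and Clec4e are shown because both genes rose together from neighboring sites, beside those of Clec12a and Mgl2, whose levels moved otherwise. Each line holds the 250 bases before the RefSeq transcript start in GRCm38.p6, read 5′ to 3′ on the strand of the gene. The Clec12a window lies inside the span that GENCODE gives for this gene (chr6:129342691-129365303), so its starts differ between both annotations. Capitals mark matches, on both strands, to the letters GAGGAA (the core of PU.1 sites), TTNNGNAA (C/EBP) and TGANTCA (AP-1). Where matches overlap, the capitals run on.
Clec4d, chr6:123261857-123262106, plus strand: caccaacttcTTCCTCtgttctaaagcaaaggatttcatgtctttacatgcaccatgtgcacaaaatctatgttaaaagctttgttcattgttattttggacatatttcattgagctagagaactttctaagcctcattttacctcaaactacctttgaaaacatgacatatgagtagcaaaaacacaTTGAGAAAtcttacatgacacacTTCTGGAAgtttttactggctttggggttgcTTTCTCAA
Clec4e, chr6:123289872-123290121, minus strand: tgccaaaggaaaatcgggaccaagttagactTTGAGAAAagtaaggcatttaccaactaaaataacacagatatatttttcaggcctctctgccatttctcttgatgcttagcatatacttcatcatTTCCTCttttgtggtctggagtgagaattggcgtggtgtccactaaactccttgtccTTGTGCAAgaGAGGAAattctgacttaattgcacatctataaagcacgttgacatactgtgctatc
Clec12a, chr6:129349994-129350243, plus strand: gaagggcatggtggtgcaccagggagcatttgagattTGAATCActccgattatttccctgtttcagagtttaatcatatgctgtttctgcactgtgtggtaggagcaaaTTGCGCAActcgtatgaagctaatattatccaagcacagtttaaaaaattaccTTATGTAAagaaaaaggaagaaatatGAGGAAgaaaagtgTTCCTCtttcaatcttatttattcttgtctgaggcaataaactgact
Mgl2, chr11:70130107-70130356, plus strand: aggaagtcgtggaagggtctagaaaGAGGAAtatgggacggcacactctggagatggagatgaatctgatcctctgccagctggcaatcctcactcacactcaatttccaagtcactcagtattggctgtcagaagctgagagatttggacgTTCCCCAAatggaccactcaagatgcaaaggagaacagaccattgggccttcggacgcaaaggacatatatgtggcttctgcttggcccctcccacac

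RefSeq promoters were matched for 6 of the 8 genes, those of Clec5a and Clec7a included, and Clec4n and Clec10a had no entry. The PU.1 letters were found at least once in the window of each of the 6 genes, where 23.3% of 32851 promoter windows of the same length held them. The C/EBP letters were found 3 times for Clec4d, 2 times for Clec4e and Clec12a, once for Clec5a and Mgl2 and 0 times for Clec7a, where 36.8% of all windows held them. The AP-1 letters were found only in the Clec12a window of these 6 genes (6.75% of all windows). These matches describe letters and do not show binding.

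Clec7a, which encodes the β-glucan receptor Dectin-1, was the most abundant receptor per exon length in each of the 5 groups. Its CPM was 289, 247 and 242 in FVB BM, 478, 442 and 455 in DBA2 BM, 495, 535, 646, 583 and 725 in primary tumors, 819, 618, 559, 695 and 681 in lymph nodes and 797, 749.8, 1230.4, 825 and 687 in LN4K1 lungs. Every TIM library lay above the BM libraries of both strains, and DBA2 BM lay above FVB BM without overlap. Clec7a rose 2.27-fold in primary tumors (log2 fold change 1.18, SE 0.14, adjusted p = 5.96e-05) and 2.60-fold in lymph nodes (log2 fold change 1.38, SE 0.14, adjusted p = 6.15e-05). In LN4K1 lungs it rose 1.77-fold (log2 fold change 0.83, SE 0.19, adjusted p = 0.0115). This last call was lost without DBA2 BM replicate 2 (adjusted p = 0.0558) and without DBA2 BM replicate 3 (adjusted p = 0.0525), by edgeR in both. Clec7a lies at chr6:129461591-129472779 on the minus strand, 96.3 kb from Clec12a, and GENCODE lists it as a polymorphic pseudogene, a class for genes that are intact in some genomes and broken in others.

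Clec5a encodes MDL-1, a DAP12-coupled receptor known from monocytes and neutrophils. Its CPM was 141, 132 and 99.5 in FVB BM, 127, 134 and 143 in DBA2 BM, 175, 159.8, 213, 171 and 134 in primary tumors, 173, 199, 89.8, 147 and 135 in lymph nodes and 141, 134, 181, 139.6 and 142 in LN4K1 lungs. All neighboring groups in the order of means overlapped. It rose 1.36-fold in primary tumors (log2 fold change 0.44, SE 0.16, adjusted p = 0.0344), and its values were 0.26 (SE 0.23, adjusted p = 0.423) in lymph nodes and 0.05 (SE 0.13, adjusted p = 0.809) in LN4K1 lungs. By edgeR, the call in primary tumors was lost in a fit of all 5 groups (adjusted p = 0.0631), without FVB BM replicates 2 (0.0553) or 3 (0.103) and without primary tumor replicates 1 (0.0574), 3 (0.0563) or 4 (0.0577).

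**Figure D2:**
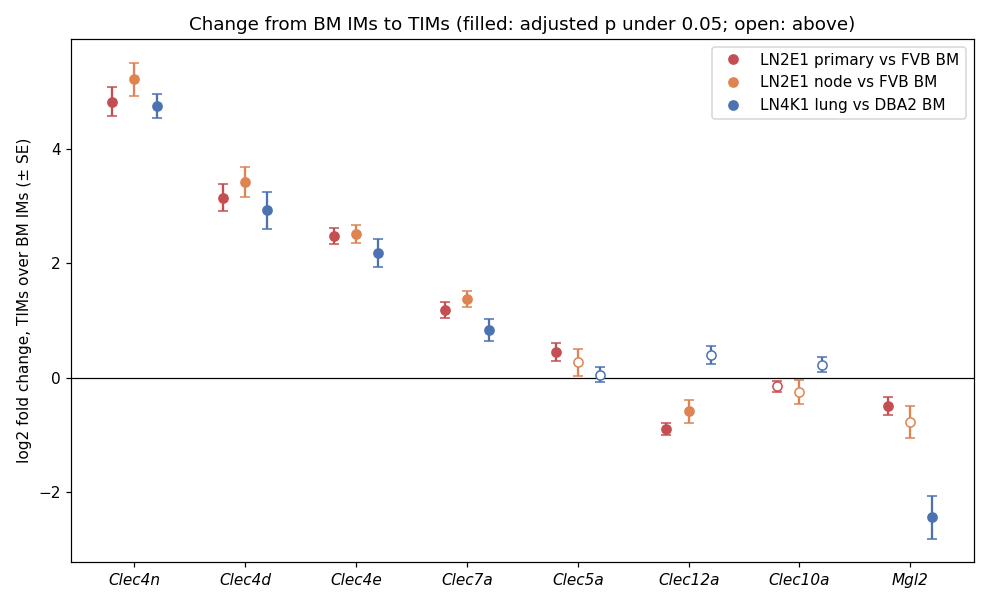
The y axis gives the log2 fold change of TIMs over BM IMs of the same strain with its SE, and the x axis the 8 receptor genes. Colors stand for the 3 TIM groups, filled points passed an adjusted p of 0.05, and open points did not. Clec4n lies highest in each comparison at 4.83, 5.22 and 4.75, and Clec12a lies below 0 in LN2E1 and above 0 in LN4K1.

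Clec12a encodes MICL, an inhibitory receptor for crystals and debris from dead cells. Its CPM was 402, 368 and 339 in FVB BM, 411, 376 and 390.5 in DBA2 BM, 201, 186, 222, 167 and 226 in primary tumors, 355, 231, 258, 186 and 194 in lymph nodes and 503, 470.3, 709, 461 and 576 in LN4K1 lungs. Primary tumor TIMs lay below FVB BM IMs without overlap, lymph node replicate 1 fell within the FVB BM range, and LN4K1 lung TIMs lay above DBA2 BM IMs without overlap. Clec12a fell in primary tumors (log2 fold change -0.90, SE 0.11, adjusted p = 9.58e-05) and in lymph nodes (log2 fold change -0.59, SE 0.20, adjusted p = 0.0435). In LN4K1 lungs its log2 fold change was 0.39 (SE 0.15, adjusted p = 0.0914), and DESeq2 put it past the threshold (adjusted p = 0.0431), as did edgeR without lung replicate 3 (adjusted p = 0.0359, log2 fold change 0.28). The call in lymph nodes was lost without any 1 of the FVB BM replicates 1, 2 and 3 or of the lymph node replicates 2, 3, 4 and 5 (adjusted p between 0.0593 and 0.143 by edgeR). Without lymph node replicate 1 it held (adjusted p = 0.00185).

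The changes of Clec12a in both models were compared directly. The change in LN2E1 primary tumors minus that in LN4K1 lungs was -1.27 on the log2 scale (SE 0.19, adjusted p = 0.000449 in edgeR's interaction test over 15182 genes). It passed in each of 16 refits without 1 library, with adjusted p at most 0.00235. In this test 1 of the 8 receptors was higher in LN2E1 and 1 lower, against 13.2% and 13.3% of all genes. The other receptor that differed was Mgl2, at 1.96 (SE 0.43, adjusted p = 0.00449), which also passed in all 16. Differences for the remaining 6 lay between -0.36 and 0.41 and did not pass. Those of Clec4d, Clec4e and Clec4n were 0.24 (SE 0.37), 0.31 (SE 0.27) and 0.10 (SE 0.27). Clec10a passed without lung replicate 1 (-0.42, adjusted p = 0.0382 by edgeR), and Clec7a passed without lung replicate 3 (0.53, adjusted p = 0.0244 by edgeR).

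Mgl2, a receptor for N-acetylgalactosamine, was the receptor lowest per exon length in each TIM group. Its CPM was 13.1, 17.9 and 12.02 in FVB BM, 16.02, 9.33 and 10.1 in DBA2 BM, 8.996, 10.3, 9.89, 10.9 and 11.00 in primary tumors, 10.02, 9.13, 9.74, 7.01 and 5.58 in lymph nodes and 1.33, 2.24, 1.39, 2.45 and 4.07 in LN4K1 lungs. Each TIM group lay below the BM IMs of its own strain without overlap. Mgl2 fell in LN4K1 lungs (log2 fold change -2.44, SE 0.38, adjusted p = 0.00135) and in primary tumors (log2 fold change -0.51, SE 0.16, adjusted p = 0.0182), and its value in lymph nodes was -0.78 (SE 0.28, adjusted p = 0.0507). The call in primary tumors was lost by edgeR without FVB BM replicate 2 (log2 fold change -0.29, adjusted p = 0.150) and in the fit of all 5 groups (adjusted p = 0.199). The value in lymph nodes passed without lymph node replicate 1 (adjusted p = 0.0257 by edgeR), in DESeq2 (0.0300), with a filter of 10 counts in every library (0.0373) and in the fit of all 5 groups (0.0406).

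Clec10a, which encodes MGL1, did not pass in any of the 3 comparisons. Its CPM was 59.7, 74.1 and 58.2 in FVB BM, 37.4, 36.1 and 39.8 in DBA2 BM, 55.4, 57.3, 58.6, 58.7 and 61.8 in primary tumors, 72.98, 55.7, 56.8, 42.8 and 38.8 in lymph nodes and 37.7, 43.9, 50.5, 51.9 and 48.8 in LN4K1 lungs. Each TIM group overlapped the BM IMs of its strain. The log2 fold changes were -0.15 (SE 0.10, adjusted p = 0.201), -0.26 (SE 0.21, adjusted p = 0.381) and 0.23 (SE 0.13, adjusted p = 0.257). Clec10a and Mgl2 lie 18.6 kb apart on chromosome 11, Mgl2 at chr11:70130329-70137550 and Clec10a at chr11:70156197-70170834, both on the plus strand. Of their 50-base stretches, 8.49% of those of Clec10a occur in Mgl2 transcripts and 12.2% of those of Mgl2 occur in Clec10a transcripts, so reads there could be shared and both values are uncertain to that extent.

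Genes that mark dendritic cells and macrophages were read from the same libraries. Of 14 dendritic cell genes, 11 rose in primary tumors, 9 in lymph nodes and 8 in LN4K1 lungs, and 1 fell in LN4K1 lungs, against 33.3%, 20.2% and 13.9% of all genes that rose and 11% that fell in LN4K1 lungs. Their summed CPM was between 220 and 265 in FVB BM, 250.02 and 298 in DBA2 BM, 2737 and 4411 in primary tumors, 4275 and 5855 in lymph nodes and 1313 and 2645 in LN4K1 lungs. H2-Ab1, an MHC class II gene that activated monocytes also express, made up most of the sum in TIMs. Flt3, a growth factor receptor gene of dendritic cells, rose by 2.23, 2.58 and 1.58 on the log2 scale. Itgax (CD11c) rose by 6.13, 6.51 and 2.53, and Siglech, known from plasmacytoid dendritic cells, rose by 7.34, 8.38 and 7.23 and reached 477 CPM in lymph nodes. Ccr7 rose by 7.27 and 5.44 in the LN2E1 sites, and its value in LN4K1 lungs was 2.12 (adjusted p = 0.232 by edgeR). Zbtb46, a transcription factor gene of conventional dendritic cells, rose by 2.07 in primary tumors and reached at most 4.63 CPM in any library. Its values in lymph nodes and LN4K1 lungs (0.73 and 0.10) did not pass. Clec9a, at most 2.70 CPM in any library, fell in LN4K1 lungs (-1.68, adjusted p = 0.0190 by edgeR). Cd209a did not pass in any of the 3 comparisons (-0.41, -0.75 and 0.55). Of 12 macrophage genes, 4 rose and 1 fell in each LN2E1 site, and 2 rose and 2 fell in LN4K1 lungs (11 tested), shares near those of all genes that rose in primary tumors (33.3%) and in LN4K1 lungs (13.9%). Their summed CPM was between 1355 and 1497 in FVB BM, 946 and 2121 in DBA2 BM, 2373 and 3082 in primary tumors, 2417 and 3839 in lymph nodes and 3999 and 5647 in LN4K1 lungs, and Vsig4 was listed at 0 in all DBA2 BM libraries. Apoe made up most of the macrophage sum in each group, with means of 1159 CPM in FVB BM and 1094 in DBA2 BM. Its means were 2386 CPM in primary tumors, 2410 in lymph nodes and 4510 in LN4K1 lungs. The macrophage sum therefore mainly follows Apoe. In LN4K1 lungs Apoe and Emr1 rose (1.97 and 0.85 on the log2 scale), and C1qc and Folr2 fell (-1.02 and -0.62). The part of dendritic cells and macrophages in the levels of Clec10a, Mgl2, Clec7a and Clec12a was not tested. Fibroblast and endothelial genes summed to between 417 and 1163 CPM in primary tumor TIMs and to at most 167 CPM in any other group, and 8 of 8 rose in primary tumors. Of 7 tested in each, 6 rose in lymph nodes and 3 in LN4K1 lungs. Of all genes, 33.3%, 20.2% and 13.9% rose in these 3 comparisons. The sum was between 56.3 and 167 CPM in lymph nodes and between 6.89 and 53.6 in LN4K1 lungs. In BM it was at most 6.19 CPM for FVB and 13.6 for DBA2. Epithelial and squamous tumor cell genes (5 of 5 tested rose in primary tumors) summed to between 157 and 742 CPM there, to between 6.62 and 133 in LN4K1 lungs and to at most 5.04 in the other groups. Sftpc and Scgb1a1, surfactant and airway secretory genes, made up most of the sum in primary tumors (means of 234 and 87.7 CPM). The squamous genes Krt5, Krt14 and Trp63 had means of 0.0313, 0.506 and 0.0140 CPM in primary tumors and were not tested in that comparison. Eosinophil genes summed to between 494 and 1341 CPM in BM libraries and to between 19.9 and 94.9 in TIM libraries. The part of these cells was not tested either.

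Per exon length, the order of the receptors differed between BM IMs and TIMs. Mean CPM per kilobase of GENCODE exon (RPKM) of Clec4n was 4.74 in FVB BM and 2.03 in DBA2 BM, the lowest of the 8 in both. It was 137 in primary tumors and 177 in lymph nodes, ranking 2 of 8 there, and 57.8 in LN4K1 lungs, ranking 4. Clec12a ranked 2 in both BM groups (66.9 and 70.98 RPKM) and in LN4K1 lungs (98.4), but 6 in primary tumors (36.3) and 5 in lymph nodes (44.3). Clec7a ranked first throughout, from 98.5 RPKM in FVB BM to 325 in LN4K1 lungs. The annotation used for counting is not given in the sources used here, so these lengths are approximate.

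**Figure D3:**
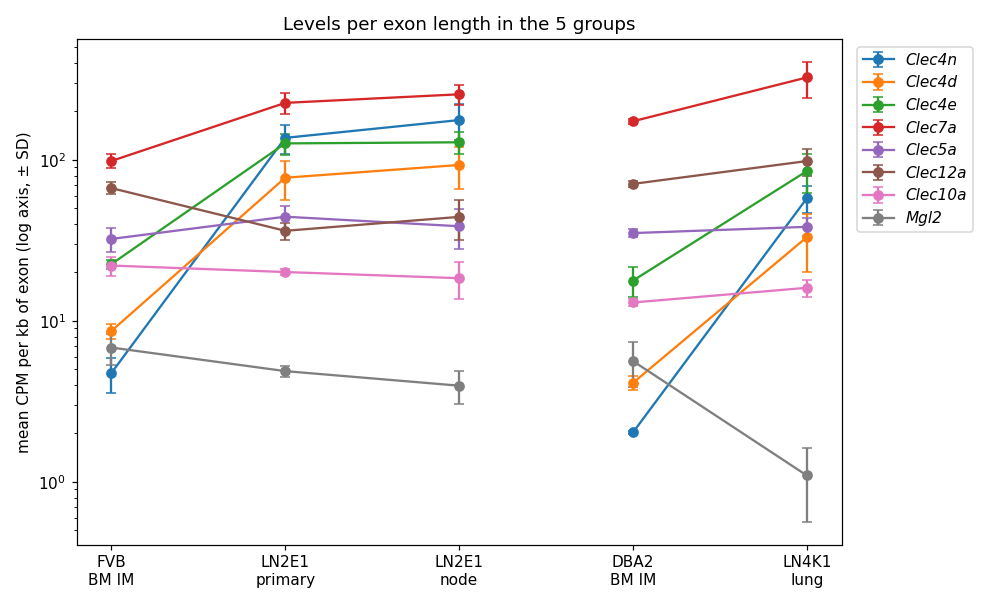
The y axis gives the mean CPM per kilobase of exon on a log axis with SD (n = 3 for BM IMs, n = 5 for TIMs), and lines join the groups of 1 mouse strain for each receptor. Clec4n moves from the lowest place in both BM groups to place 2 in the LN2E1 TIMs, and Mgl2 takes the lowest place in the TIMs.

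Lymph node and primary tumor TIMs of the LN2E1 model were compared for differences between both sites. None of the 8 receptors passed in edgeR, 0 also passed at an unadjusted p under 0.05 and 0 passed in DESeq2, where 11.7% of all 13488 genes passed in edgeR in either direction. The log2 fold changes lay between -0.29 for Mgl2 and 0.38 for Clec4n, with SE between 0.13 and 0.22. All 8 receptors overlapped between the sites, where 5.61% of all genes lay higher and 8.84% lower without overlap. Lymph node replicate 1 held the highest CPM of its group for 7 of the 8 receptors. LN4K1 lung replicate 3 held the highest of its group for 6 of 8.

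BM IMs of both strains were compared because each model has its own baseline. In DBA2 BM IMs, Clec7a was higher than in FVB BM IMs and Clec4n, Clec4d and Clec10a were lower, where 11.5% of all 12905 genes were higher and 9.57% lower. The log2 differences were 0.84 for Clec7a (SE 0.10, adjusted p = 0.00106), -1.21 for Clec4n (SE 0.26, adjusted p = 0.0151), -1.05 for Clec4d (SE 0.19, adjusted p = 0.00742) and -0.74 for Clec10a (SE 0.12, adjusted p = 0.00591). The groups did not overlap for these 4 genes, 1 higher and 3 lower, where 20.5% of all genes lay higher and 21.5% lower without overlap. The call for Clec4n was lost by edgeR without DBA2 BM replicate 2 (adjusted p = 0.0503) or replicate 3 (adjusted p = 0.0575). Values of Clec4e, Clec5a, Clec12a and Mgl2 lay between -0.32 and 0.15 and did not pass.

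Adaptors and kinases that carry the signal of these receptors were read from a list of 17 genes. In primary tumors 8 rose and 2 fell, in lymph nodes 8 rose and 1 fell, and in LN4K1 lungs 4 rose and 0 fell. Of all genes, 33.3%, 20.2% and 13.9% rose and 28.6%, 17.2% and 11% fell. The median log2 fold change of the list was 0.46, 0.62 and 0.13, beside 0.08, -0.04 and 0.03 for all genes. Lyn, a kinase of the SRC family, rose in all 3 (1.12, 1.10 and 0.91). Syk rose in both LN2E1 sites (1.29 and 1.31), and its value in LN4K1 lungs was 0.15 (adjusted p = 0.550). The change of Syk differed between primary tumors and LN4K1 lungs (interaction 1.16, SE 0.24, adjusted p = 0.00323), as did that of Inpp5d, the gene of the phosphatase SHIP1 (1.94, SE 0.40, adjusted p = 0.00337). Fcer1g (FcRγ) and Tyrobp (DAP12), the adaptors, differed in the other direction (-0.75, adjusted p = 0.0350, and -0.84, adjusted p = 0.00335). Fcer1g rose in lymph nodes (0.58) and LN4K1 lungs (0.90), and its value in primary tumors was 0.12 (adjusted p = 0.400). Tyrobp rose in LN4K1 lungs (0.87), with values of 0.01 and 0.40 in the LN2E1 sites. Its baselines differed, with means of 1388 CPM in DBA2 BM and 2054 in FVB BM (log2 difference -0.54, adjusted p = 0.00974 by edgeR). In TIMs the means of Tyrobp were 2098 CPM in primary tumors, 2700 in lymph nodes and 2675 in LN4K1 lungs. Card9 did not pass in any of the 3 (-0.27, -0.53 and -0.22), nor did Ptpn6, the gene of the phosphatase SHP-1 (0.04, -0.09 and -0.09). The kinase gene Prkcd fell in both LN2E1 sites (-0.54 and -0.61), and its value in LN4K1 lungs was -0.45 (adjusted p = 0.310 by edgeR). The phosphatase gene Ptpn11 fell in primary tumors (-0.29).

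**Figure D4:**
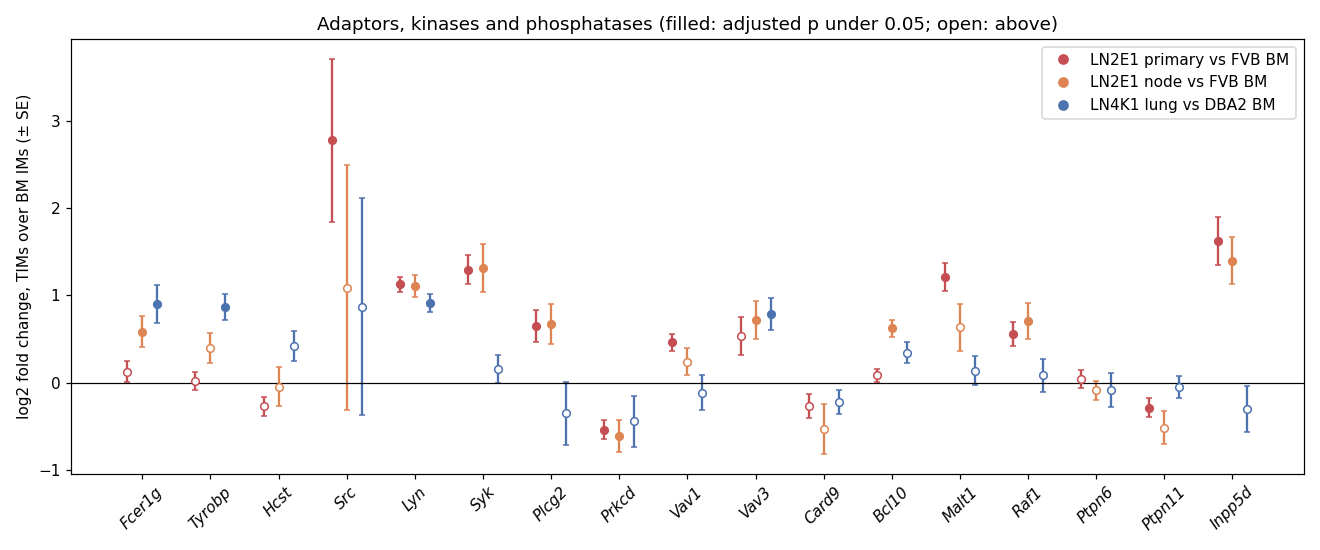
The y axis gives the log2 fold change of TIMs over BM IMs of the same strain with its SE, and the x axis the 17 genes of the list of adaptors, kinases and phosphatases. Colors stand for the 3 TIM groups, filled points passed an adjusted p of 0.05, and open points did not. Syk and Inpp5d lie above 1 in both LN2E1 groups and at 0.15 and -0.30 in LN4K1, and Lyn is filled in all 3.

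Of 13 transcription factors downstream of SYK and CARD9, 11 rose and 0 fell in primary tumors, 8 of 12 tested rose and 1 fell in lymph nodes, and 5 rose and 0 fell in LN4K1 lungs, with medians of 1.013, 1.24 and 0.60. Egr2 (3.68, 3.15 and 4.16 on the log2 scale), Irf1 (2.87, 3.60 and 1.86), and the NF-κB genes Nfkb2 (2.10, 2.21 and 0.97) and Relb (1.82, 1.66 and 0.83) rose in all 3. Of 20 listed outputs of this signalling, 17 rose and 2 fell in primary tumors, 12 of 17 rose and 2 fell in lymph nodes, and 11 of 16 rose and 0 fell in LN4K1 lungs, with medians of 3.35, 2.71 and 1.82. The shares and medians of all genes are those given for the adaptors. Il1b rose by 7.68, 6.95 and 7.14 on the log2 scale, Ccl4 by 3.00, 2.56 and 3.80, and Ptgs2, which makes prostaglandins, by 4.13, 2.71 and 1.76. Cxcl2 rose by 3.70 and 3.13 in the LN2E1 sites, and its value in LN4K1 lungs was 0.92 (adjusted p = 0.0517). Many other receptors feed these genes, so the lists do not belong to C-type lectins alone.

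Of 24 other C-type lectin-like receptors listed, 10 of 22 tested rose and 5 fell in primary tumors, 5 of 19 rose and 4 fell in lymph nodes, and 7 of 20 rose and 2 fell in LN4K1 lungs. Of all genes, 33.3%, 20.2% and 13.9% rose and 28.6%, 17.2% and 11% fell, and the lymph node counts and the falls lay near these shares. The median log2 fold change of the list was 0.23, 0.53 and 0.59. The scavenger receptor gene Colec12 rose in all 3 (1.96, 2.12 and 1.61), as did Klrk1, the gene of the activating receptor NKG2D (3.50, 4.50 and 1.09). Klrb1f, a relative of NK cell receptor genes, fell in all 3 (-4.48, -5.69 and -2.01). NK cell marker genes summed to between 0 and 8.95 CPM in FVB BM, to 0 in DBA2 BM and to between 3.44 and 4.10 in primary tumors. In lymph nodes they summed to between 2.07 and 3.02 CPM and in LN4K1 lungs to between 7.04 and 16.1. The part of NK cells in the values of Klrk1 and Klrb1f was not tested.

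Genes whose pattern over the 21 libraries was most like that of a receptor were found by the root mean square difference of centered log2 CPM, among 8015 genes, or 8016 for Mgl2, with a mean log2 CPM above 3. For Clec4d they were Ms4a6d (0.34), Rab20 (0.37) and Tspan13 (0.41). For Clec4e they were Srgn (0.22), Il18 (0.24) and Cd14 (0.28). For Clec4n they were Arg2 (0.42), Il18bp (0.46) and Il1r2 (0.48). For Clec12a they were Smim4 (0.18), Ly86 (0.19) and Clec4a2 (0.20). For Clec7a the first was Jhdm1d (0.21) and for Mgl2 it was Ngfrap1 (0.49). The nearest gene of Clec5a (Rrbp1, 0.20) was set against an own SD of 0.29 over the libraries. The own SD was 1.66 for Clec4d, 1.17 for Clec4e, 2.43 for Clec4n, 0.59 for Clec12a, 0.57 for Clec7a and 1.07 for Mgl2. Differences are therefore not comparable between receptors without these SDs.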

How the data were processed

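The values are raw counts of reads per gene symbol, deposited by the authors for 21 libraries. The authors trimmed reads with BBDuk, aligned pairs to mm10 with BBMap and counted with featureCounts (1.5.2 per the submitters' processing notes, with SAMtools 1.8). The settings and annotation for counting are not given in the sources used here. Libraries were made by SMARTer amplification and Nextera XT and carry no strand. No column was left unused.

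Counts were tested in R 4.3.3 with edgeR 4.0.16 (TMM, its default filter, with count minimum 10 and total minimum 15, robust quasi-likelihood test), each comparison on its own libraries, and the interaction on 4 groups. The script was tested on simulated data. DESeq2 1.42.0 was an alternative, as were DESeq2 size factors, 2 other filters, a fit of all 5 groups, the replicate block, the thresholds of the study and leaving out each library. SE is the absolute log2 fold change over the square root of F and is approximate. Log2 CPM used a prior count of 2. Python 3.11.15 made tables and figures. Locations and exon lengths are from GENCODE vM21, promoters from RefSeq.

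The receptors, lists and comparisons were chosen with earlier results of these data known. The text names all 8 receptors, genes of the adaptor list, from each other pathway list the 4 genes with the largest absolute log2 fold change among those passing in primary tumors with a mean log2 CPM above 3, and up to 3 genes most like a receptor (those of Clec10a are not reported here). Other Clec4 neighbors and marker genes were named after their values were seen.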

Additional observations from a re-analysis of the deposited data

Results flagged for a closer look

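Clec5a stood apart in LN4K1 lung replicate 3, at 180.9 CPM against 134 to 142 CPM in the other 4 libraries. Clec7a stood apart in the same library, at 1230.4 CPM against 687 to 825 CPM. In both, the gap to the nearest library over the range of the group (0.831 and 0.746) was above the critical value of 0.710 for 5 libraries. Of 24 groups of 5 values looked at, 2 were found, and chance gives about 1 in 20. Both came from the same library, so they are not independent of each other. Over all genes, the chi-square of counts per gene between this library and each other lung library lay between 432 and 860. For pairs of the other lung libraries it lay between 45.5 and 248. The deviation of this library is therefore not particular to Clec5a and Clec7a.

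Clec12a changed differently in LN2E1 primary tumors and LN4K1 lungs, with a difference of -1.27 on the log2 scale. Mgl2 also changed differently, with a difference of 1.96. Both differences passed edgeR's interaction test.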

How the results depend on the processing

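Of 736 values of single receptors recomputed under other settings, 705 kept their side of the threshold, with the sign of 8 uncalled ones turned, 23 were no longer past it, 8 came past it and 0 reversed a call. Under the thresholds of the study, applied to edgeR values, the receptors that fell numbered 0 in primary tumors and 0 in lymph nodes. In LN4K1 lungs 1 rose and 0 fell, between strains 0 were higher and 0 lower, and in the interaction 0 were higher and 0 lower. These thresholds are stricter by construction. In the fit of all 5 groups, 1 receptor fell in primary tumors and 2 in lymph nodes. In lymph nodes 2 fell with the filter of 10 counts in every library and 2 in DESeq2. The cause was not tested. DESeq2 size factors moved the median of all genes by at most 0.06 on the log2 scale.

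Without 1 library, receptors that fell numbered between 1 and 2 in primary tumors and between 0 and 2 in lymph nodes, and those higher and lower in the interaction each between 1 and 2. Replicate numbers did not pair the libraries, since correlations of same-numbered deviations lay between -0.15 and 0.08, none over 0.1. In the comparison of lymph nodes with FVB BM, each of 3 libraries correlated best with its own number. With the replicate block, 1 receptor fell in primary tumors, where Clec5a (adjusted p = 0.0796) and Mgl2 (0.0776) no longer passed in edgeR, and 0 fell in lymph nodes, where Clec12a had an adjusted p of 0.0734. Clec7a in LN4K1 lungs had 0.0550.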
